A study of Mus musculus with 3 samples.

Results

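The 9 genes described here are S100a4, S100a6, S100a10, S100a11 and S100a13 of the S100 family and Ifitm1, Ifitm2, Ifitm3 and Ifitm6 of the Ifitm family, out of 32285 genes counted. They were chosen on their levels in early conventional type 1 dendritic cells (cDC1s) of these libraries, namely the cells of clusters 4 and 1 of the deposited cluster table. Their levels in the remaining barcodes that carried Cd7 or Cd209a were part of the same choice. Levels by cluster and between groups of these barcodes are therefore given as a description and without a test. For the 9 genes a test is given only for a split within the Cd209a barcodes by other genes, which the choice did not use. S100 proteins are small EF-hand proteins that bind calcium and, with it, partner proteins, among them the annexins, which bind membranes. Ifitm proteins are small membrane proteins that hinder the entry of enveloped viruses into cells, and several of them are induced by interferon. Several S100 genes are abundant in myeloid cells, and several Ifitm genes are expressed at high levels in stem and progenitor cells.

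The study measured single-cell transcriptomes of dendritic cells from MCA205 LA OVA tumours, a fibrosarcoma line carrying an ovalbumin antigen, grown in mice of several genotypes. WT mice gave 1 library, and the others came 1 each from sGSN-/- mice, which lack secreted gelsolin, and sGSN-/-Clec9a-/- mice, which also lack Clec9a (DNGR-1), a receptor of cDC1s for actin exposed by dead cells. Animals of a genotype were pooled, and sorted cDC1s, cDC2s and pre-cDCs were combined in each library. With 1 library per genotype there was no replicate within a genotype, so no genotype difference was tested, and the spread given below is the spread between the 3 libraries.

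In the order WT, sGSN-/- and sGSN-/-Clec9a-/-, the libraries held 12763, 8173 and 9273 barcodes with 176578136, 109270958 and 113411930 unique molecular identifiers (UMIs). The median barcode had 13210, 11954 and 10649 UMIs. The cluster table covered 5806 of these barcodes, of which 2316, 1712 and 1778 fell in each library. All levels are given in CPM, meaning UMIs of a gene per 1000000 UMIs of the same sum of cells, and values per library are given in this order throughout. Pairs of libraries shared 26 to 28 barcode sequences, of which 2 or 3 per pair were in the cluster table. No doublet caller was run. The early to resting ratios of S100a4 and Ifitm1 were 3.03 and 3.76 on the log2 scale after cells with UMIs of NK, T, C1q or plasmacytoid genes were left out, against 3.03 and 3.77 with them.

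Clec9a, the gene deleted in the double mutant, had 5502, 3970 and 2 UMIs over all cDC1s of the table, or 168, 168 and 0.0931 CPM. The 2 UMIs of the sGSN-/-Clec9a-/- library gave a 95% Poisson interval of 0.0113 to 0.336 CPM, far below the other libraries. Gsn stood at 152, 169 and 167 CPM, and since the deleted secreted form shares most of its sequence with the cytoplasmic form, its counts do not check the sGSN label.

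The genes of each family lie close together. On mouse build GRCm38, S100a13 (chr3:90514435-90524581), S100a4 (chr3:90603771-90606045) and S100a6 (chr3:90612882-90624181) lay within 109747 bases, and S100a11 (chr3:93520488-93526287) and S100a10 (chr3:93555080-93564643) further along the same chromosome, all 5 on the plus strand. The 4 Ifitm genes lay within 63088 bases of chromosome 7, with Ifitm2 (chr7:140954837-140955987), Ifitm3 (chr7:141009586-141010770) and Ifitm6 (chr7:141015699-141017924) on the minus strand and Ifitm1 (chr7:140967221-140969825) on the plus strand. S100a4 and Ifitm2 each overlapped 1 annotated gene of the same strand, Gm42674 and Gm45717. Of the 50-base windows of the longest transcript, 56.4% of S100a4, 48.5% of Ifitm2, 41.1% of S100a11, 10.02% of Ifitm3 and 6.36% of Ifitm1 also occurred in another annotated gene, so how reads were assigned could alter the counts of these 5 genes. No such window was found for S100a6, S100a10, S100a13 or Ifitm6.

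The cDC1s of the table were compared in 3 states. Early cDC1s (clusters 4 and 1) numbered 1332 cells, resting cDC1s (clusters 5, 2, 3, 6 and 0) 3499 cells and activated cDC1s (clusters 7, 8, 9 and 10) 915 cells, while cluster 11 with 60 cells entered no state. Median UMIs per cell were 13187, 13017 and 10973 in early, 14423.5, 14749 and 12725.5 in resting and 14052, 14047 and 11927.5 in activated cells, so depth differed little between states and was lowest in the sGSN-/-Clec9a-/- library in each.

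The early label was held against marker genes. Of 6 precursor markers, 5 had all 3 early sums above all 3 resting sums and 1, Flt3, had them below. Their summed level was 299, 290 and 255 CPM in early against 226, 213 and 224 CPM in resting cells, and Flt3, the receptor for the cytokine that drives dendritic cell development, was the most abundant of them, with means of 136 and 177 CPM. Cd7 stood at 22.1 CPM in early and 2.01 CPM in resting cells and Ly6c2 at 24.3 and 4.34 CPM. Cd7 and Ly6c2 were thus more abundant in early cells, at low absolute levels.

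Markers of other cell types moved with the same contrast. The 6 cDC2 markers summed to 161, 131 and 157 CPM in early against 28.1, 25.7 and 25.2 CPM in resting cells, with 5 of 6 higher in all sums and Cd209a the most abundant at 79.1 CPM. The 6 cDC1 markers went the other way, at 1727, 1886 and 1700 against 2599, 2560 and 2436 CPM, with 5 of 6 lower and Irf8 leading at 979 CPM. The remaining marker, Clec9a, is deleted in the sGSN-/-Clec9a-/- library. It had 102, 114 and 0 CPM in early against 189, 187 and 0.0747 CPM in resting cells. Early cells thus held more cDC2 and less cDC1 marker RNA than resting cells but far more cDC1 than cDC2 marker RNA. Of 6 monocyte markers 3 were higher and 2 lower, with Plac8 leading in early cells at 776 CPM and sums of 1669, 1730 and 1849 against 1559, 1540 and 1565 CPM. The 5 neutrophil markers, which include the abundant neutrophil S100 genes S100a8 and S100a9, were near 0 in early cells, with sums of 0.727, 0.519 and 0.208 CPM and no UMI of S100a8, S100a9 or Retnlg. The part of cDC2 and monocyte marker RNA in the levels below was not tested. In cells without any Cd7 or Cd209a UMI, an alternative added after seeing the data, the early to resting log2 ratio was 2.40 for S100a4, 1.26 for S100a6, 3.64 for Ifitm1, 0.97 for Ifitm2, 1.15 for Ifitm3 and 3.98 for Ifitm6.

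S100a4, a calcium-binding protein known for roles in cell motility, had 451, 317 and 399 CPM in early, 41.1, 52.2 and 49.8 CPM in resting and 161, 187 and 145 CPM in activated cDC1s. No library overlapped between states, and early cells were highest, resting cells lowest and activated cells between them in each library. The log2 ratio of early to resting was 3.03 ± 0.43 (SD, n = 3 libraries), an 8.15-fold difference of the means, and that of activated to resting 1.78, or 3.44-fold. Within early cells the level was uneven, since cluster 4 had 834, 587 and 770 CPM and cluster 1 had 222, 173 and 185 CPM. Cluster 4 stood above every other cluster, followed by clusters 10 and 8, with means of 364 and 324 CPM, whose libraries overlapped. Cluster 1 came next, then clusters 7 and 5, which overlapped each other, and the remaining clusters lay between 33.8 and 44.5 CPM. Cluster 10 held 21, 27 and 28 cells, so its order rests on few cells.

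Counts per cell showed how S100a4 was spread. After each cell was thinned to 3900 UMIs, which left out 51 early, 105 resting and 78 activated cells of lower depth, the median early cell had 0 UMIs and the 90th percentile was 6, 4 and 5 UMIs. Mean thinned UMIs were 1.84, 1.27 and 1.63 in early and 0.165, 0.207 and 0.192 in resting cells. In cluster 4 the median was 2 UMIs in each library. The median cell thus had UMIs of S100a4 in cluster 4 but not over all early cells. At this depth a cell with 0 UMIs may still express the gene, so no share of expressing cells is given.

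S100a6, a family member that also binds annexins, had 1121, 949 and 881 CPM in early, 329, 364 and 341 CPM in resting and 617, 601 and 593 CPM in activated cDC1s. The states again did not overlap, and the early to resting log2 ratio was 1.51 ± 0.23 (2.86-fold) and the activated to resting ratio 0.81 (1.75-fold). Clusters 4 (1364 CPM) and 10 (1233 CPM) were highest and overlapped each other, clusters 1 (767 CPM) and 7 (678 CPM) followed and overlapped, and clusters 5 (500.3 CPM) and 8 (499 CPM) came next. Cluster 6 had the lowest mean, 228 CPM, and overlapped cluster 9 at 271 CPM. Cluster 6 also had the lowest median depth of the resting clusters, at 9374, 7237 and 8288.5 UMIs per cell.

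S100a10 (p11), which forms a complex with annexin A2 at the plasma membrane, had 577, 586 and 541 CPM in early, 406, 390 and 392 CPM in resting and 397, 308 and 412 CPM in activated cDC1s. Early sums were all above resting sums, but the means differed by 1.43-fold, under the 1.5-fold used to count a gene, while activated and resting sums overlapped. The early difference lay in cluster 4, where the log2 ratio to resting cells was 1.18, against -0.05 in cluster 1. Cluster 4 was highest at 894 CPM, then clusters 5 (646 CPM) and 10 (546 CPM), which overlapped, and clusters 8 (251 CPM) and 6 (226 CPM) were lowest.

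S100a11, a partner of annexin A1, and S100a13, which takes part in the release of proteins without a signal sequence, differed little between states. S100a11 had 1907, 1861 and 1774 CPM in early, 1854, 1877 and 1825 CPM in resting and 1837, 1804 and 1951 CPM in activated cDC1s, with log2 ratios to resting of 0.00 and 0.01. S100a13 had 144, 143 and 142 CPM in early, 141, 148 and 142 CPM in resting and 134, 125 and 135 CPM in activated cells, with log2 ratios of -0.01 and -0.13. Early and resting sums of both genes overlapped. By cluster, S100a11 ran from 2108 CPM in cluster 0 through overlapping neighbours to 1494 CPM in cluster 9, and only cluster 6, at 1151 CPM, stood apart. S100a13 ran from 162 CPM in cluster 5 to 136 CPM in cluster 3, and lower in clusters 8 (115 CPM), 9 (110 CPM) and 6 (97.0 CPM).

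Ifitm1, an Ifitm protein found mostly at the cell surface, had 841, 778 and 799 CPM in early, 64.8, 71.3 and 40.9 CPM in resting and 194, 159 and 121 CPM in activated cDC1s. The 3 states did not overlap. The log2 ratio was 3.77 ± 0.43 for early to resting, a 13.7-fold difference, with 3.70, 3.45 and 4.29 in the single libraries, and 1.42 (2.68-fold) for activated to resting. Clusters 1 (817 CPM) and 4 (785 CPM) were highest and overlapped, so Ifitm1, in contrast to S100a4, was alike in both early clusters. Cluster 10 followed with 379, 615 and 542 CPM, and cluster 7 with 229, 141 and 99.2 CPM.

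In thinned counts the median early cell had 1, 0 and 0 Ifitm1 UMIs, the 90th percentile 12, 9 and 9, and the highest cell 51, 77 and 73. Resting cells had a 90th percentile of 1 UMI in each library and means of 0.247, 0.286 and 0.174 UMIs. The typical early cell thus had 0 or 1 Ifitm1 UMI and a minority had many. In the outside barcodes with Cd7 and without Cd209a, described further on, the median was 13, 8 and 8 UMIs.

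Ifitm2, which like Ifitm3 resides largely in endosomes, had 2135, 2137 and 2037 CPM in early, 1025, 1120 and 1021 CPM in resting and 1069, 1020 and 1020 CPM in activated cDC1s. Only the early sums stood apart, with a log2 ratio to resting of 0.99 ± 0.063 (1.99-fold), while the activated to resting ratio was -0.03. Cluster 1 (2215 CPM) was above cluster 4 (1907 CPM), which was above cluster 10 (1424 CPM). Clusters 3 (806 CPM) and 6 (757 CPM) overlapped and cluster 9 (589 CPM) was lowest.

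Ifitm3, the best known antiviral member of the family, had 1739, 1607 and 1766 CPM in early, 659, 716 and 684 CPM in resting and 1640, 1810 and 1889 CPM in activated cDC1s. Early and activated sums overlapped each other and lay above the resting sums. The log2 ratio to resting was 1.31 ± 0.13 (2.48-fold) for early and 1.37 (2.59-fold) for activated cells. Cluster 7 was highest in each library, at 2537, 2564 and 2536 CPM, then clusters 10 (2104 CPM) and 4 (2064 CPM), which overlapped, then cluster 1 (1497 CPM) and cluster 8 (954 CPM). Thinned medians were 6, 5 and 5 UMIs in early, 2, 2 and 2 in resting and 5, 5 and 6 in activated cells, so the shift was seen in the typical cell.

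Ifitm6 had 101, 103 and 105 CPM in early, 4.97, 6.17 and 4.48 CPM in resting and 20.1, 31.3 and 28.7 CPM in activated cDC1s. Its early to resting log2 ratio was 4.31 ± 0.25, or 19.8-fold, the largest of the 9 genes, and its activated to resting ratio 2.36, or 5.12-fold. Cluster 4 was highest (173 CPM), clusters 10 (83.5 CPM) and 1 (63.5 CPM) overlapped, and cluster 7 (36.6 CPM) and cluster 5 (10.4 CPM) followed. Cluster 10 was uneven, at 28.3, 139 and 83.7 CPM.

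**Figure D1:**
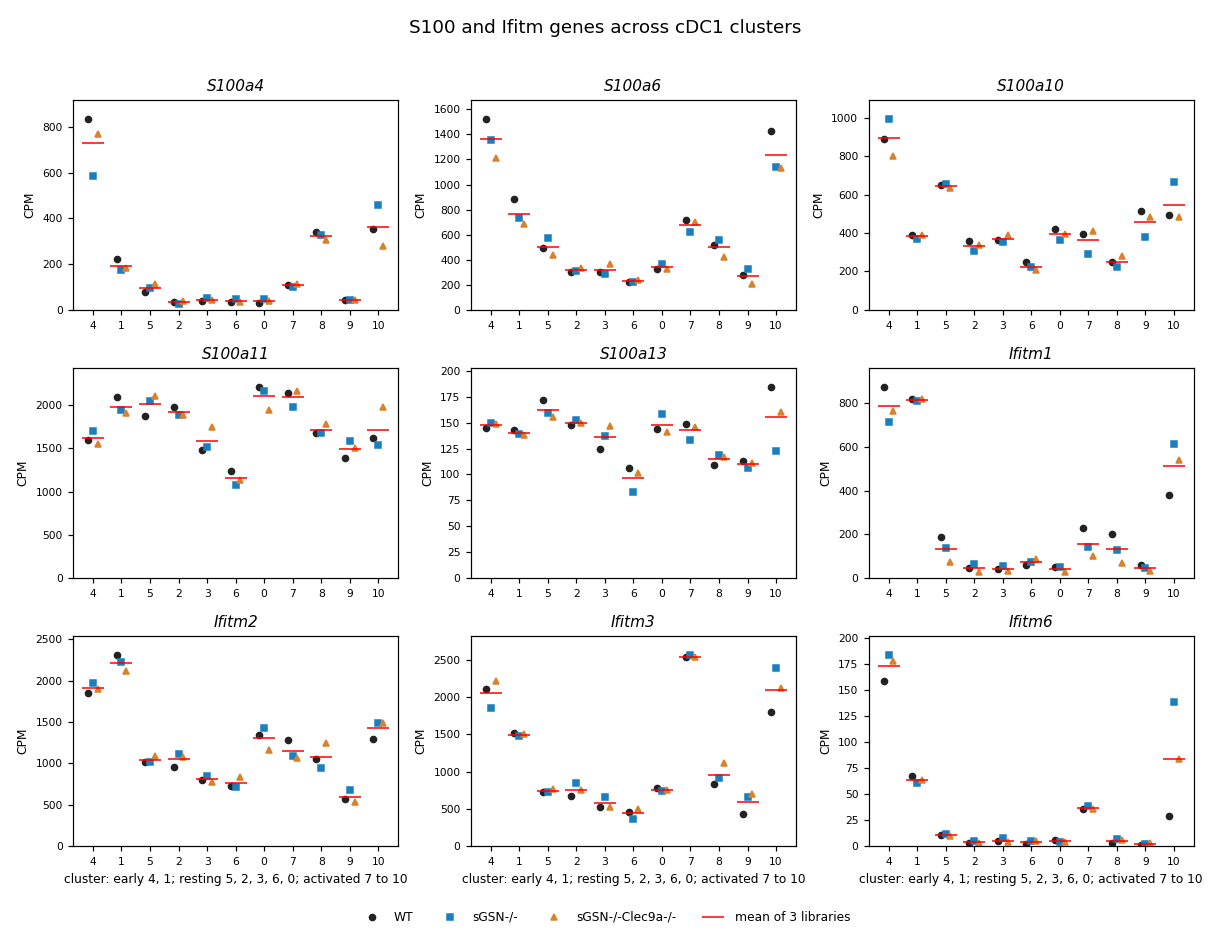
Levels of the 9 genes in CPM (vertical axis, linear from 0) in the 11 clusters of cDC1s, in the order early (4, 1), resting (5, 2, 3, 6, 0) and activated (7, 8, 9, 10). Points are the 3 libraries and the red line is their mean; S100a4 and Ifitm6 peak in cluster 4 (730 and 173 CPM), Ifitm1 and Ifitm2 in cluster 1 (817 and 2215 CPM) and Ifitm3 in cluster 7 (2546 CPM).

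Counted together, 6 of 9 genes (S100a4, S100a6 and all 4 Ifitm genes) had all early sums above all resting sums with means at least 1.5-fold apart, as did 5.85% of the 6718 genes at 10 CPM or more, and 0 of 9 lay below, as did 7.95% of genes. Since the genes were chosen on this contrast, nothing is read from that count. In activated cells 5 of 9 (S100a4, S100a6, Ifitm1, Ifitm3 and Ifitm6) lay above resting cells, as did 9.9% of 6769 genes, and 0 of 9 below, as did 4.61%. Ifitm2 was thus counted in early cells and not in activated cells. The 6 markers of the Ccr7 state were all higher in activated than in resting sums.

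Over the 11 clusters, with log2 of mean CPM compared, several of the 9 genes ran together. Pearson r was 0.952 between S100a6 and Ifitm6, 0.932 between Ifitm1 and Ifitm6, 0.910 between S100a6 and Ifitm3, and 0.907 between S100a4 and S100a6. S100a11 and S100a13 formed another pair, with r of 0.783, and S100a4 and S100a11 were the least alike at 0.105. The clusters share libraries and were made from these same counts, so these are descriptions over 11 points.

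Among 6135 other genes, the 3 most like each of 4 members over the 11 clusters were as follows. For S100a4 they were Fdft1 (squalene synthase) with r of 0.967, Tgm2 (a transglutaminase) with 0.956 and Idi1 (an isomerase of isoprenoid synthesis) with 0.951. For S100a6 they were Fdps (farnesyl diphosphate synthase) with 0.976, Msmo1 (a methylsterol oxidase) with 0.958 and Pop4 (a subunit of RNase P) with 0.947. For Ifitm1 they were Klrd1 (the lectin CD94) with 0.965, Dock4 (an exchange factor for small GTPases) with 0.952 and Mvk (mevalonate kinase) with 0.938. For Ifitm3 they were Pop4 with 0.955 and the membrane-spanning proteins Ms4a4c and Ms4a6b with 0.9497 and 0.939.

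The other genes of both families were low in cDC1s. S100a1, a family member best known from muscle, had 28.5, 31.6 and 30.1 CPM in early and 47.8, 41.6 and 41.3 CPM in resting cells. Ifitm5, known from bone, had 3.93, 4.32 and 2.08 CPM in early cells. The other 13 genes of the list had at most 1.02 CPM in any early sum, and S100a8, S100a9, S100a14, S100a16, S100g, S100z and Ifitm7 had no UMI there. S100a1 thus lay lower in early than in resting cells, opposite to S100a4 and S100a6.

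The annexins are membrane-binding partners of S100 proteins. Over whole states, Anxa2, the partner of S100a10, had a mean of 610.5 CPM in early, 619 CPM in resting and 714 CPM in activated cells, and Anxa1, the partner of S100a11, 351, 392 and 397 CPM, with early and resting sums of Anxa2 overlapping. The early clusters differed from each other. Anxa2 had 922 CPM in cluster 4, its highest mean of the 11 clusters, and 434 CPM in cluster 1, its lowest. S100a10 had 894 and 383 CPM in these clusters, and was lower still in 5 of the 11 clusters. Anxa1 had 543 and 242 CPM, and Anxa5 341 and 239.9 CPM, in clusters 4 and 1. Anxa5 early sums (287, 283 and 259.6 CPM) lay above resting sums (221, 227 and 218 CPM), and activated sums (382, 418 and 379 CPM) above both. Anxa3 and Anxa4 were high in the activated cluster 8 alone among the 11 clusters, at means of 152 and 158 CPM. In the activated clusters 7, 9 and 10, Anxa3 was at 2.07, 1.24 and 2.36 CPM and Anxa4 at 35.7, 39.6 and 49.5 CPM.

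Outside the cluster table were 24403 barcodes, of which 11222 carried a UMI of Cd7 or Cd209a (5017, 2828 and 3377). Cd7 is found on precursors and on NK and T cells, and Cd209a on cDC2s and monocyte-derived cells, so the barcodes were sorted by marker UMIs into gates before levels were read. Low-quality barcodes (1265) and those of NK or T cells (4819), macrophage-like C1q cells (4116), plasmacytoid cells (639), Ccr7 cells (277) and Xcr1 cells (1573) were set apart. The rest comprised 674 barcodes with Cd7 alone, 2430 with both genes, 3519 with Cd209a alone and 5091 with neither.

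S100a4 had 2845, 2497 and 2919 CPM in barcodes with Cd7 alone, 2729, 2773 and 3160 CPM with both and 2237, 2158 and 2523 CPM with Cd209a alone, against 418, 362 and 379 CPM in Xcr1 barcodes. S100a6 had 3737, 2880 and 3469 CPM, 3804, 3587 and 3777 CPM, and 3041, 2721 and 2896 CPM in the same 3 gates, and 859, 749 and 691 CPM in Xcr1 barcodes. Both genes were thus several times higher in these gates than in Xcr1 barcodes, and higher than in early cDC1s of the table. S100a10 stood at 1007, 919 and 1236 CPM with Cd7 alone and 1038, 1021 and 1130 CPM with Cd209a alone, overlapping, and at 534, 493 and 563 CPM in Xcr1 barcodes. S100a11 had 1898, 1763 and 1986 CPM with Cd7 alone and 1614, 1587 and 1517 CPM in Xcr1 barcodes. S100a13 was highest in the NK or T gate, at 236, 235 and 257 CPM, against 129, 126 and 158 CPM with Cd7 alone.

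Ifitm1 had 4013, 3686 and 3232 CPM with Cd7 alone, 2854, 2604 and 2487 CPM with both, 2464, 2030 and 1918 CPM with Cd209a alone and 598, 364 and 364 CPM in Xcr1 barcodes. The gate with Cd7 alone stood above the others of these 4 without overlap. Ifitm2 had 2637, 2421 and 2879 CPM, 2847, 2650 and 2855 CPM, 1782, 1661 and 1642 CPM, and 934, 893 and 814 CPM in the same order, with the Cd7 gates above Cd209a alone. Ifitm3 was highest in barcodes with both genes, at 3183, 2946 and 3651 CPM, against 2413, 2186 and 2840 CPM with Cd7 alone, 2003, 1802 and 2015 CPM with Cd209a alone and 798, 688 and 744 CPM in Xcr1 barcodes. Ifitm6 had 123, 112 and 105 CPM, 145, 118 and 174 CPM, 94.4, 86.6 and 97.1 CPM, and 23.3, 12.8 and 17.4 CPM in the 4 gates. All 4 Ifitm genes were thus lowest in Xcr1 barcodes among these gates.

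**Figure D2:**
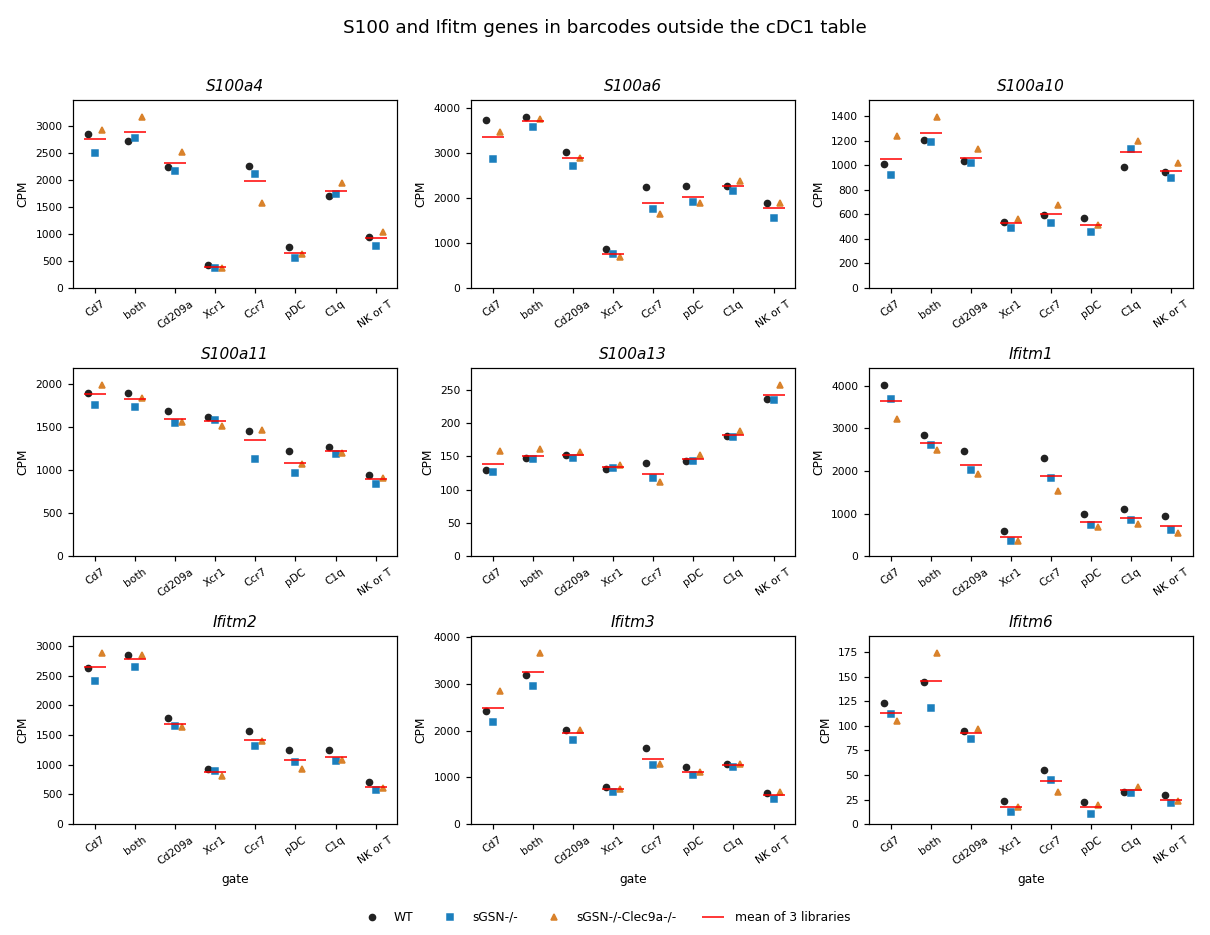
Levels of the 9 genes in CPM (vertical axis, linear from 0) in barcodes outside the cluster table, by gate of marker UMIs. Points are the 3 libraries and the red line is their mean; Ifitm1 is highest with Cd7 alone (4013, 3686 and 3232 CPM) and S100a4 and S100a6 are several times higher in the Cd7 and Cd209a gates than in Xcr1 barcodes.

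With Cd7 alone against Cd209a alone, 2 of 9 genes, Ifitm1 and Ifitm2, had all sums higher with means at least 1.5-fold apart, as did 6.74% of 7312 genes, and 0 of 9 lower, as did 5.42%. The log2 ratio was 0.77 (1.70-fold) for Ifitm1 and 0.64 (1.56-fold) for Ifitm2. It was 0.35 for Ifitm3, 0.29 for Ifitm6, 0.26 for S100a4, 0.24 for S100a11, 0.22 for S100a6, -0.01 for S100a10 and -0.14 for S100a13. The gates decided these directions for 8 of the 9 genes. Over all outside barcodes with no gate applied, NK and T cells included, the ratio was -0.60 for both Ifitm1 and Ifitm2, -0.90 for Ifitm3, -1.15 for Ifitm6, -0.76 for S100a4, -0.45 for S100a11, -0.33 for S100a6 and 0.46 for S100a13. S100a10 alone kept its sign, at -0.19. The precursor markers summed to 920, 1187 and 1239 CPM with Cd7 alone and 192, 211 and 166 CPM with Cd209a alone, Cd7 being the most abundant in the first and at 0 by the gate in the second. The 7 NK markers summed to 60.5, 171 and 181 CPM against 16.6, 46.6 and 27.6 CPM, with Gzma leading. The cDC2 markers summed to 544, 509 and 376 CPM against 2046, 2075 and 2069 CPM, with Mgl2 leading and Cd209a at 0 by the gate with Cd7 alone. The part of these cell types in the ratios was not tested.

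Ccr7 is the chemokine receptor that mature dendritic cells use to reach lymph nodes. Outside the table, Ccr7 barcodes (146, 95 and 36) were compared with Cd209a barcodes (1857, 753 and 1155, Xcr1 barcodes kept). Levels in Cd209a barcodes had a part in the choice of the 9 genes, so their values here are a description and no p is given for them, while the annexins and interferon-induced genes were not chosen on these levels. Median UMIs were 12430.5, 11386 and 12356.5 against 14535, 13985 and 12002. Of 10880 genes tested, 13.8% were higher and 9.77% lower in Ccr7 barcodes at an adjusted p under 0.05, 2565 in all. The genes that set the groups (Ccr7, Fscn1, Ccl22, Cd209a and Cd7) differ by that choice, and nothing is read from them. The count was 1000 without the WT library, 1290 without the sGSN-/- library and 2259 without the sGSN-/-Clec9a-/- library. In the same order, lower calls fell from 1063 to 249, 409 and 854, and higher calls from 1502 to 751, 881 and 1405.

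S100a10 had 592, 528 and 678 CPM in Ccr7 barcodes against 998, 967 and 1083 CPM in Cd209a barcodes. The groups did not overlap, and the log2 fold change was -0.62. Ifitm6 had 54.7, 44.5 and 32.7 CPM against 89.8, 75.9 and 89.4 CPM, again without overlap, with a log2 fold change of -0.70. S100a6 had 2259, 1754 and 1640 CPM against 2863, 2487 and 2697 CPM, without overlap, and a log2 fold change of -0.35, which was -0.45 without the WT library, -0.38 without the sGSN-/- library and -0.24 without the sGSN-/-Clec9a-/- library.

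For the other 6 genes the log2 fold change was -0.24 for Ifitm3, 0.06 for S100a4, 0.09 for Ifitm1, -0.03 for Ifitm2, -0.09 for S100a11 and -0.11 for S100a13, and those of S100a4 and Ifitm1 turned to -0.09 and -0.06 without TMM factors. Ifitm3 had 1634, 1254 and 1281 CPM against 1916, 1665 and 1890 CPM, without overlap, and its log2 fold change was -0.34 when Xcr1 barcodes were left out of the Cd209a side, an alternative added after seeing the data. S100a4 was at 0.29 without the sGSN-/-Clec9a-/- library and at -0.08 without the sGSN-/- library. The median of the 9 genes was -0.11, that of all genes -0.02. Without TMM factors the median of all genes was -0.17, and 37.8% of the calls were higher, against 58.6% with them.

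Of the 8 annexins, 5 were higher and 2 lower in Ccr7 barcodes. Anxa3 had 141, 238 and 62.2 CPM against 20.8, 23.3 and 20.8 CPM, a log2 fold change of 3.01, and Anxa4 a log2 fold change of 1.01, with adjusted p of 3.45e-05 and 7.33e-05 by edgeR's quasi-likelihood test, Benjamini-Hochberg adjusted, both higher in 3 of 3 libraries. Anxa1 had 157, 112 and 181 CPM against 305, 298 and 282 CPM, a log2 fold change of -0.85, lower in 3 of 3 libraries, with adjusted p = 0.000786 by the same test and adjustment in edgeR. These 3 genes passed with any 1 library left out. Anxa2 (0.31), Anxa5 (0.50), Anxa11 (0.38) and Anxa6 (-0.57 log2) passed with all libraries but not in each of these fits. Without the WT library they were at 0.29, 0.41, 0.37 and -0.81, and without the sGSN-/- library at 0.25, 0.44, 0.39 and -0.34, none of them past the threshold. Anxa11 did not pass without the sGSN-/-Clec9a-/- library either (0.39), and with the library as a block its adjusted p was 0.0809 by edgeR's quasi-likelihood test, Benjamini-Hochberg adjusted, at a log2 fold change of 0.39. S100a10 and its partner Anxa2 thus had opposite signs in this contrast, and without TMM factors Anxa2 kept its sign at 0.16 without passing. Anxa11 did not pass without TMM factors (0.23), Anxa2 (0.25) and Anxa11 (0.32) without a filter on low counts, nor Anxa6 (-0.37) without Xcr1 barcodes.

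Other cell markers differed between these barcodes. The cDC2 markers summed to 872, 916 and 1069 CPM in Ccr7 and 1919, 1876 and 1933 CPM in Cd209a barcodes, with Mgl2 the most abundant. The monocyte markers summed to 1091, 1290 and 1567 against 2190, 2253 and 2710 CPM, with Lyz2 leading and Vcan at 0 in Ccr7 barcodes. The macrophage markers summed to 103, 340 and 246 against 123, 115 and 163 CPM, with Apoe leading, and the fibroblast or tumour cell markers to 140, 175 and 311 against 380, 370 and 499 CPM, nearly all of it Fn1. The cDC1 markers summed to 514, 601 and 794 against 417, 544 and 424 CPM, with Irf8 leading, and the precursor markers to 293, 250 and 247 against 194, 213 and 168 CPM, with Tcf4 leading and Cd7 at 0 by the gate in Cd209a barcodes. Whether these markers had a part in the changes was not tested. Of 9 interferon-induced genes, 7 were higher in Ccr7 barcodes, among them Isg15, a ubiquitin-like protein, at a log2 fold change of 1.45, and Irf7, a transcription factor of the interferon response, at 1.43. Of the 7, Oasl2 (0.88) and Xaf1 (0.40) did not pass without the WT library, and Xaf1 did not pass without the sGSN-/- (0.42) or the sGSN-/-Clec9a-/- library (0.53). Xaf1, at an adjusted p of 0.0499 by edgeR's quasi-likelihood test, Benjamini-Hochberg adjusted, for a log2 fold change of 0.46, higher in 3 of 3 libraries, also did not pass with DESeq2, without TMM factors, with a Cd209a gate at 2 UMIs, without Xcr1 barcodes or after thinning to 3900 UMIs (0.097). Isg20 (0.64) and Oasl2 (0.45) did not pass after thinning either.

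Whether the Ifitm genes went with other interferon-induced genes was tested within Cd209a barcodes. The top 10% of barcodes in each library (186, 76 and 116), ranked by the share of UMIs in 8 interferon-induced genes (Ifit1, Ifit2, Ifit3, Ifit3b, Rsad2, Cmpk2, Oasl1 and Usp18), were tested against the barcodes with no UMI of these genes (1258, 512 and 777). The latter group was more than the lower 50% of barcodes, because the median share was 0. The top group began at 1.94, 1.48 and 2.31 UMIs per 10000, and 37, 18 and 27 barcodes lay within 10% of that limit. Median UMIs were 13078.5, 12386.5 and 10934 in the top group and 14019, 13041 and 11393 in the other. Of 10125 genes tested, 5.35% were higher and 1.35% lower, 679 in all, and these include the 8 genes of the split, which had to differ. The count was 375 without the WT library and 306 without the sGSN-/-Clec9a-/- library. Lower calls moved most, from 137 with all libraries to 59 without WT, 82 without sGSN-/- and 17 without sGSN-/-Clec9a-/-. With the library as a block 270 of 927 calls were lower, and without a filter on low counts 352 of 1011.

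Of the 9 genes 1 was higher and 1 lower, both of the Ifitm family. Ifitm3 had 3336, 2276 and 3153 CPM in interferon-high against 1758, 1591 and 1741 CPM in the other barcodes, without overlap, and rose by a log2 fold change of 0.80 (SE 0.13), higher in 3 of 3 libraries, with adjusted p = 0.00163 by edgeR's quasi-likelihood test, Benjamini-Hochberg adjusted. Ifitm1 had 1715, 1048 and 1135 CPM against 2743, 2304 and 2317 CPM, again without overlap, and its log2 fold change was -0.90 (SE 0.15), lower in 3 of 3 libraries, with adjusted p = 0.00193 by the same edgeR test with Benjamini-Hochberg adjustment. The neighbouring Ifitm genes thus moved in opposite directions. Without the sGSN-/-Clec9a-/- library the log2 fold changes were 0.75 for Ifitm3 and -0.86 for Ifitm1, with adjusted p of 0.0614 and 0.0807 by edgeR's quasi-likelihood test, Benjamini-Hochberg adjusted, past the threshold no longer.

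Ifitm2 had 1626, 1208 and 1430 CPM against 1875, 1735 and 1796 CPM and a log2 fold change of -0.33, lower in 3 of 3 libraries, with adjusted p = 0.0889 by edgeR's quasi-likelihood test, Benjamini-Hochberg adjusted, and 0.000944 with the library as a block. Ifitm2 also passed without TMM factors (-0.34), without a filter on low counts (-0.37) and with a Cd209a gate at 2 UMIs (-0.36), but not in the other alternatives. Ifitm6 had 115, 73.5 and 113 CPM against 92.7, 83.1 and 92.7 CPM, overlapping, with a log2 fold change of 0.21 and adjusted p = 0.461 by the same edgeR test with Benjamini-Hochberg adjustment. Among the S100 genes, S100a11 was at -0.26, lower in 3 of 3 libraries, with adjusted p = 0.209 by edgeR's quasi-likelihood test, Benjamini-Hochberg adjusted and 0.00795 with the library as a block. It also passed without a filter on low counts (-0.30), but not in the other alternatives. S100a4 (-0.06), S100a6 (0.09), S100a10 (0.12) and S100a13 (0.17) did not pass. The median log2 fold change of the 9 genes was 0.09 and that of all genes 0.00.

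All 9 of the interferon-induced genes that were not used for the split were higher in the top group, from Isg15 at a log2 fold change of 4.27 and Irf7 at 3.92 to Bst2 (tetherin) at 1.48. Of the annexins, 2 of 8 passed, Anxa5 at 0.45 and Anxa7 at 0.60. Without the WT library they were at 0.44 and 0.66 and did not pass, and without the sGSN-/-Clec9a-/- library Anxa7 was at 0.47 and did not pass, nor did it after thinning (0.59). The monocyte markers summed to 2553, 2679 and 2463 CPM in the top group and 1751, 1757 and 1953 CPM in the other, with Lyz2 leading. The cDC2 markers summed to 2160, 2274 and 2195 against 1874, 1783 and 1933 CPM, with Cd209a leading in the top group and Mgl2 in the other, and the precursor markers to 294, 259 and 268 against 185, 217 and 169 CPM, with Tcf4 leading and Cd7 at 0 by the gate. The fibroblast or tumour cell markers, nearly all Fn1, were uneven, at 229, 674 and 273 against 308, 240 and 301 CPM. Macrophage markers summed to 116, 114 and 302 against 132, 129 and 112 CPM, with Apoe leading. Markers of the Ccr7 state summed to 40.3, 39.6 and 91.9 against 42.8, 42.1 and 33.3 CPM, with Ccl22 leading. Both lists were higher in the top group only in the sGSN-/-Clec9a-/- library. The part of these markers in the Ifitm changes was not tested.

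**Figure D3:**
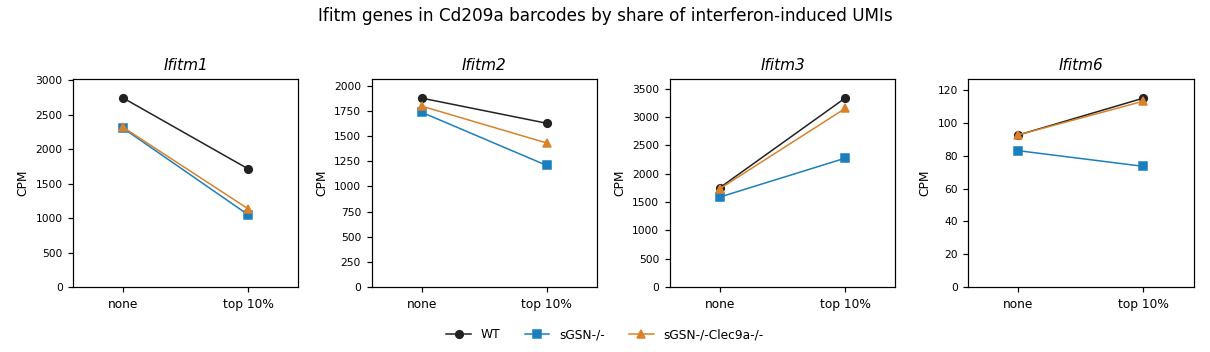
Levels of the 4 Ifitm genes in CPM (vertical axis) in Cd209a barcodes without UMIs of the 8 interferon-induced genes and in the top 10% by these genes, 1 line per library. Ifitm3 was higher in each library (2276 to 3336 against 1591 to 1758 CPM) and Ifitm1 lower (1048 to 1715 against 2304 to 2743 CPM).

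The same interferon-induced genes in cDC1s of the table were highest in activated cells. Isg15 had a mean of 107 CPM in early, 84.7 CPM in resting and 899 CPM in activated cells, and Irf7 had 123, 113 and 712 CPM. Bst2 had 305, 264 and 582 CPM. Between early and resting cells these genes did not share a direction, since Oasl2 was higher in early cells, at 7.26 against 2.83 CPM, while Ifi44, at 12.7 against 26.1 CPM, and Ifi27l2a, at 359 against 561 CPM, were lower, each without overlap of the libraries. In cluster 7, where Ifitm3 was highest, Isg15 had 1394 CPM and Irf7 1128 CPM.

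Between genotypes, ratios of the 9 genes over all cDC1s ran from 0.853 (Ifitm1, sGSN-/-Clec9a-/- to sGSN-/-) to 1.266 (Ifitm6, sGSN-/- to WT). S100a4 had 144 (95% Poisson interval 140 to 149), 142 (138 to 147) and 143 (138 to 148) CPM. Ifitm3 had 1025 (1014 to 1036), 1133 (1119 to 1146) and 1109 (1095 to 1123) CPM. These intervals cover counting error only and no difference between mice. Ifitm6 had 27.4 (25.6 to 29.2), 34.7 (32.3 to 37.1) and 30.8 (28.5 to 33.2) CPM.

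Ifitm1 was lower in resting cDC1s of the sGSN-/-Clec9a-/- library, at 40.9 CPM (37.5 to 44.5), than in the WT library, at 64.8 CPM (61.4 to 68.3), and the sGSN-/- library, at 71.3 CPM (66.9 to 75.9). The ratio was 0.573 to sGSN-/- and 0.631 to WT. Among genes at 10 CPM or more, 0.813% and 0.874% were at least 1.5-fold apart either way in these pairs, and 0.496% between sGSN-/- and WT, where the Ifitm1 ratio was 1.101. The sGSN-/-Clec9a-/- library was lowest in 4 of the 5 resting clusters, among them cluster 5 with 185, 138 and 71.3 CPM. Cluster 6 was the exception, at 60.8, 74.4 and 85.3 CPM. In activated cDC1s Ifitm1 had 194, 159 and 121 CPM, a ratio of 0.622 between sGSN-/-Clec9a-/- and WT, a pair in which 6.8% of genes were at least 1.5-fold apart. Ifitm6 was at a ratio of 1.561 between sGSN-/- and WT in activated cells, where 3.55% of genes were that far apart, and at 0.915 between sGSN-/-Clec9a-/- and sGSN-/-, where 8.58% were. For Ifitm1, early cDC1s had 841, 778 and 799 CPM. Each of the 9 gates outside the table had its highest Ifitm1 level in the WT library and its lowest in the sGSN-/-Clec9a-/- library, the latter almost level with sGSN-/- in Xcr1 barcodes. Free RNA in the droplets was not measured, and its part in the cDC1 levels was not tested. In early cells S100a4 was at a ratio of 0.703 between sGSN-/- and WT. These differences have no replicate check, and genotype and library cannot be told apart.

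The promoters of the Ifitm genes are shown because neighbours moved in opposite directions with the interferon-induced genes. Of the 9 genes 8 were matched to RefSeq promoters (build GRCm38.p6, 250 bases before to 50 after the start), and S100a10 was not matched in the promoter set used. They were searched on both strands for GAAA, any 2 bases and GAAA again (the core of interferon response elements, read as TTTC, any 2 bases and TTTC on the other strand), a motif chosen after the values were seen. It was found in 3.443% of all promoters of this length (1131 of 32851) and in 2 of the 8, 1 match in Ifitm2 and 2 in Ifitm3. In the stretches below, 5′ to 3′ on the strand of the gene, capitals mark the motif. The stretch of Ifitm2 (chr7:140955988-140956061, minus strand, 74 bases upstream of the annotated exons) holds it at position -46 from the start. The stretch of Ifitm3 past its start (chr7:141010715-141010744, minus strand, 30 bases within the first exon) holds it from bases 3 and 20. The upstream stretches of Ifitm3 (chr7:141010771-141010844, minus strand), Ifitm1 (chr7:140967976-140968027, plus strand) and Ifitm6 (chr7:141016909-141016992, minus strand) overlap no annotated exon and hold no match. Those of Ifitm1 and Ifitm6 are upstream of the RefSeq start but lie within an intron of the longer annotated gene given above. A match is a description of letters and not a measured binding site.
Ifitm2 upstream: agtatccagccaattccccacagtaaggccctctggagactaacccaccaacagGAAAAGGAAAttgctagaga
Ifitm3 past the start: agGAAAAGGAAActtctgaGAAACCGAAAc
Ifitm3 upstream: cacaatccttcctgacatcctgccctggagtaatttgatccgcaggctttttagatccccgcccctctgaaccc
Ifitm1 upstream: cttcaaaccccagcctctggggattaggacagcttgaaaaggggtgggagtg
Ifitm6 upstream: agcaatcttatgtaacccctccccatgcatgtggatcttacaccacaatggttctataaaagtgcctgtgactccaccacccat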

How the data were processed

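Droplet single-cell libraries (10X Genomics Chromium) of 3 genotypes were analysed. The deposited counts are raw UMI counts per gene and barcode, which the authors made with Cell Ranger on mm10. The deposited cluster numbers, scores in a table of cDC1s, and the other labels there came from the authors' clustering with Seurat, and UMI totals of the table equalled those counted in 4559 cells, the largest difference being 34. Members, lists and gates were chosen with earlier results of these data known. The genes named are the 9 members, the rest of both families, 8 annexins, interferon-induced genes (9 of 10 found; Mx1 was not analysed here) and the 3 genes most like each of 4 members, among genes at 20 CPM or more in a cluster.

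UMIs were summed per library and cluster, state or gate (Python 3.11.15, pandas 2.3.3, numpy 2.4.6, scipy 1.17.1, matplotlib 3.10.9). A gene counted as apart when all 3 sums lay above or below and the means differed 1.5-fold, at 10 CPM or more. Barcodes under 200 genes or above 17.5% mitochondrial UMIs were left out. Gates took 2 UMIs for NK or T cells, 10 for C1q, 5 for plasmacytoid genes, 1 Ccr7 UMI with 5 UMIs of Ccr7, Fscn1 and Ccl22 together, and 2 for Xcr1. Tests used edgeR 4.0.16 in R 4.3.3 (quasi-likelihood, TMM factors, filterByExpr, Benjamini-Hochberg, threshold 0.05), checked on simulated data. The 9 genes were tested in the Ccr7 contrast too, with a Cd209a gate without Xcr1 barcodes fitted first, but their p-values there are not given, a choice made after seeing them, because levels in Cd209a barcodes had a part in choosing the genes. Alternatives were DESeq2 1.42.0, no TMM factors, no filter, the library as a block, thinning to 3900 UMIs, other gates and each library left out. Both sums of a library come from the same pool of mice. Their deviations correlated across genes at 0.1, 0.0365 and 0.0932 in the Ccr7 contrast and 0.15, 0.0919 and 0.112 in the interferon contrast. With 1 sum per library and gate, p-values measure the spread between libraries of different genotypes. Positions and windows come from GENCODE M21 (GRCm38).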

Additional observations from a re-analysis of the deposited data

How the results depend on the processing

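Without a minimum CPM, 2726 genes were apart between early and resting sums (927 with it) and 2601 between activated and resting sums (982 with it), since more genes of low counts were then compared. Leaving out 1 library gave 877 to 1042 and 900 to 1170 genes. In the Ccr7 contrast, 1000 to 2259 genes were called with 1 library left out (2565 with all). In the interferon contrast the count was 306 to 541 (679 with all), and 406 after thinning to 3900 UMIs. These fits used fewer samples or UMIs, and the part of this in the lower counts was not tested.

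These log2 values turned sign. Without gates, Cd7 to Cd209a barcodes gave -0.60 for Ifitm1 and -0.60 for Ifitm2. The sign also turned for Ifitm3 (-0.90), Ifitm6 (-1.15), S100a4 (-0.76), S100a11 (-0.45), S100a6 (-0.33) and S100a13 (0.46). Barcodes of the other gates were then included, and their part in these changes was not tested. In the Ccr7 contrast, S100a4 (0.06) was at -0.093 and Ifitm1 (0.09) at -0.063 without TMM factors, S100a4 at -0.00454 without a filter and -0.00309 with a Cd209a gate at 2 UMIs, and S100a4 at -0.072 and Ifitm1 at -0.029 without Xcr1 barcodes, an alternative whose values were seen first. Leaving out 1 library put S100a4 at -0.080 to 0.29, Anxa7 at -0.067 to 0.12 and Ifi27l2a at -0.21 to 0.29. Anxa7 (0.04) was also at -0.12 without TMM factors and -0.029 without a filter, and Ifi44 at -0.083 after thinning. In the interferon contrast, Anxa3 was at 0.097 after thinning, and Anxa6 at 0.096 and Anxa11 at 0.095 with the top 5%. Leaving out 1 library put Anxa6 at -0.062 to 0.052 and Anxa11 at -0.23 to 0.018. None of the annexins and interferon-induced genes passed the test where they turned sign, and the cause was not tested.

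Of 99 early to resting values of the 9 genes, 69 moved by less than 1 SD between libraries and 30 by more. Of their 90 values in the Ccr7 contrast, 8 turned sign, and in the interferon contrast 91 of 99 kept their direction and their side of the threshold, 6 newly passed (Ifitm2 and S100a11) and 2 no longer did (Ifitm1 and Ifitm3). The library as a block changed no other call of the genes named than those of Ifitm2, S100a11 and Anxa11. Alternatives that left out Cd7 or Cd209a cells, doublet-like cells or Xcr1 barcodes were chosen after seeing the data. Cluster 10 and the Ccr7 barcodes of the sGSN-/-Clec9a-/- library were few, which limits precision there.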
